A study of Mus musculus with 6 samples.

Results

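The genes described here are 8 cytokine receptor chains and 2 suppressors of cytokine signalling, measured in thymocytes of mice in which the gene Tox was targeted. They are Il7r, Il2rg, Il2rb, Il4ra, Il21r, Il6ra, Il18r1, Ifngr1, Socs1 and Socs3, chosen by name, and each matched 1 row of the 22298 genes listed in the deposited tables. All 10 were among the 14121 genes that passed a filter on low counts and were tested. Messenger RNA was sequenced from thymus cells that had been sorted by flow cytometry. The labels call the cells double-negative thymocytes, precursors without CD4 and CD8 on their surface, while the protocol speaks of the DN2 stage within them. Toxf/fPdcd1Cre mice carry Tox alleles flanked by recombination sites (floxed) and a Cre whose name points to Pdcd1, which encodes the receptor PD-1. Toxf/f mice carry the same floxed alleles without the Cre. All mice were C57BL/6 and untreated. The mice of replicates 1 and 2 were 3 weeks old and those of replicate 3 were 4 weeks old, in each genotype. Of the 6 samples, 3 per genotype, the deposited values of Toxf/f replicates 1 and 2 were identical, so they were counted as 1 library. This leaves 3 Toxf/fPdcd1Cre libraries against 2 distinct Toxf/f libraries. The column header of the shared library reads WT-2, so the values of Toxf/f replicate 1 may be missing. The labels do not tell whether samples are separate animals, and p-values therefore describe the spread among these libraries alone. The Cre acts only where its driver is or was active, and the labels do not say in which cells that is.

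Most of these cytokine receptors have no kinase of their own. Ligand binding brings chains together with their Janus kinases (JAK), which phosphorylate STAT transcription factors, and SOCS proteins made in response bind the receptor or the kinase and damp the signal. Interleukin-7 and its receptor keep early thymocytes and mature single-positive T cells alive, and the receptor is known to be low in the double-positive stage between them, where Socs1 is known to be abundant. Il18r1 belongs instead to the IL-1 receptor family, which signals through the adaptor MyD88. The common gamma chain, product of Il2rg, is shared by the receptors for interleukin-2, interleukin-4, interleukin-7, interleukin-9, interleukin-15 and interleukin-21.

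Tox, a nuclear HMG-box protein needed for T cell development, was checked first. It had 281, 257 and 201 counts in Toxf/fPdcd1Cre libraries and 1896 and 1746 in Toxf/f libraries, a log2 fold change of -2.78 ± 0.161 (SE) with an adjusted p of 6.72e-06 (edgeR's quasi-likelihood test, Benjamini-Hochberg adjustment). An exact two-sided permutation test, with 10 possible arrangements of the library labels, gave p = 0.1, below which 3 against 2 libraries cannot go. Pdcd1 had 0 counts in all 3 Toxf/fPdcd1Cre libraries, and 19 and 0 in the Toxf/f libraries. Library totals ran from 14245492 to 16199195 counts. Toxf/fPdcd1Cre replicate 1 stood apart, with 1 count of the chromosome Y gene Ddx3y against 843 to 1354 in the other libraries, and with -8.19 on the first principal component (50.7% of variance), where the other Toxf/fPdcd1Cre libraries lay at 35.8 and 37.9 and the Toxf/f libraries at -25.4 and -40.2. The label was compared with its markers: Cd4 lay between 237 and 306 FPKM and Cd8a between 473 and 639 FPKM over all libraries, against 1.90 to 5.0 FPKM for Kit, which marks the DN2 stage. These levels go against a population without CD4 and CD8 transcripts, so the cells are named only as the labels name them.

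Across the 10 genes the levels spread widely. FPKM, fragments scaled to transcript length and library size, allows the genes to be ordered within these libraries. Il2rg averaged 211 FPKM over the 5 libraries (rank 305 of all listed genes) and Ifngr1 206 FPKM (rank 316), and their ranges overlapped. Il21r at 60.8 FPKM, Il4ra at 47.2 FPKM and Socs1 at 27.1 FPKM followed, and no range of any of these 3 overlapped that of a neighbour in the order. Il2rb at 13.2 FPKM, Socs3 at 11.6 FPKM, Il7r at 11.03 FPKM and Il18r1 at 6.99 FPKM had ranges that all overlapped one another. Il6ra was the lowest at 2.78 FPKM (rank 10071), and its range reached into that of Il18r1.

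**Figure D1:**
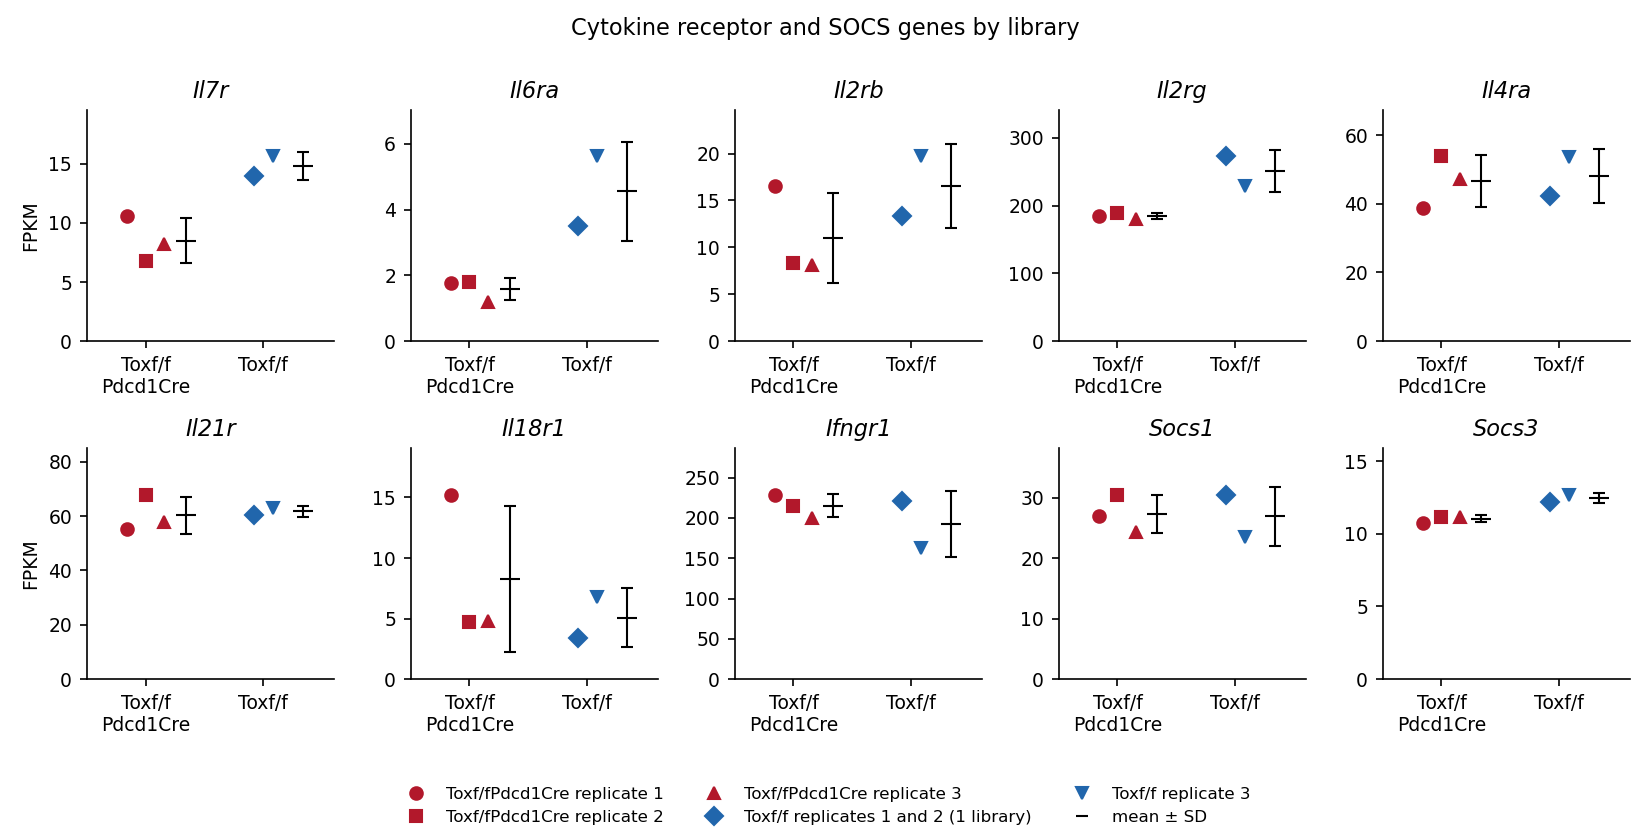
FPKM of each of the 10 genes in the 3 Toxf/fPdcd1Cre libraries (left in each panel) and the 2 distinct Toxf/f libraries (right), with the mean and SD of each genotype as bars. Il7r, Il6ra, Il2rg and Socs3 show no overlap between genotypes, and Il18r1 shows 1 Toxf/fPdcd1Cre library, replicate 1 at 15.2 FPKM, far above all others.

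The interleukin-7 receptor and the interleukin-6 receptor were the genes of the group that fell. The sequences around their start sites are shown, with that of Socs1, because they let the genes that fell be set beside one that did not pass the test. The windows come from RefSeq on GRCm38.p6, run from 250 bases before to 50 after the start and are written 5′ to 3′ along each gene's own minus strand. The Il7r window is chr15:9529827-9530126, the Il6ra window chr3:89913147-89913446 and the Socs1 window chr16:10785487-10785786. Capitals mark CAGGAAGT, an ETS-type motif, which reads ACTTCCTG in Il7r because it lies on the other strand, and in Socs1 a run with the core of an interferon response element, GAAA and GAAA parted by any 2 bases.
Il7r: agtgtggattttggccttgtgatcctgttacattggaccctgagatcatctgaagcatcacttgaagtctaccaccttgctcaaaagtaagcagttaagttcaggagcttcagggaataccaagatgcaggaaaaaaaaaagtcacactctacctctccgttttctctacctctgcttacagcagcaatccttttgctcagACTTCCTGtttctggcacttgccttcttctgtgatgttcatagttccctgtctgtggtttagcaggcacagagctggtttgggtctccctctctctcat
Il6ra: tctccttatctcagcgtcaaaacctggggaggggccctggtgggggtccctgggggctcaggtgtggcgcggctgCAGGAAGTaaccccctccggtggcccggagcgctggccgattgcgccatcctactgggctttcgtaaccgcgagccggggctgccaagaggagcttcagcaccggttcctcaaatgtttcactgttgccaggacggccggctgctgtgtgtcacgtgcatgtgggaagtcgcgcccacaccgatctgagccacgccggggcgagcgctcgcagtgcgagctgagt
Socs1: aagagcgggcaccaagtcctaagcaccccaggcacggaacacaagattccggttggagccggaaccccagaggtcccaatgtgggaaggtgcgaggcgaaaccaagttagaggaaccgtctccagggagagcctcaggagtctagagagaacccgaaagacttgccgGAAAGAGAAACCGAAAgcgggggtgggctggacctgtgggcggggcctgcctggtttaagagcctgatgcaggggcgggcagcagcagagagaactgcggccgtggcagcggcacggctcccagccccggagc
Of the 10 genes 9 matched the table of windows, all but Il2rb, and the motifs were searched on both strands with the sequences in view. CAGGAAGT stood in the windows of Il7r, 49 bases before the start, and of Il6ra, 175 bases before it, 2 of 9 genes, against 3.86% of 27025 genes. The interferon response core stood in the window of Socs1 alone among the 9, as 2 matches that share 4 bases, against 3.99% of all genes. The STAT-type motif TTCNNNGAA, whose matches overlapped no other match, stood in the windows of Il7r, Il18r1 and Socs3, against 9.55% of all genes. By the GENCODE M21 gene positions given below, the windows of Il7r, Il18r1 and Socs3 lie inside the genes. Bases before the start therefore count from RefSeq's start alone. The forkhead-type motif TGTTTAC stood in that of Il21r, against 4.05%. Because the motifs were searched with the sequences in view, the shares over all genes give scale only and are no test of enrichment. A match describes letters in these windows and shows no binding, and no common trait of the genes that fell is drawn from it.

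Il7r encodes the alpha chain of the interleukin-7 receptor, which also pairs with Crlf2 in the receptor for TSLP. The gene (ENSMUSG00000003882) lies on chromosome 15 from 9505788 to 9530176 on the minus strand of GRCm38, in the GENCODE M21 annotation used for all positions here. It had 533, 389 and 440 counts in Toxf/fPdcd1Cre libraries and 762 and 888 in Toxf/f libraries. The levels were 10.6, 6.78 and 8.18 FPKM in Toxf/fPdcd1Cre libraries, against 13.97 and 15.6 FPKM in Toxf/f libraries. Every Toxf/fPdcd1Cre library lay below both Toxf/f libraries, replicate 1 nearest to them. The means were 8.51 ± 1.92 FPKM (SD, n = 3) in Toxf/fPdcd1Cre and 14.8 ± 1.17 FPKM (SD, n = 2) in Toxf/f. Il7r was 1.68-fold lower in Toxf/fPdcd1Cre, a log2 fold change of -0.75 ± 0.166 (SE, edgeR). The adjusted p of 0.0496 lay just inside the threshold of 0.05. The call was lost with the shared library of Toxf/f replicates 1 and 2 left out (0.250, edgeR's adjusted p), with Toxf/f replicate 3 left out (0.464), and with Toxf/fPdcd1Cre replicate 2 (0.0934) or 3 (0.162) left out, though the log2 fold change stayed between -0.93 and -0.62 over all 18 alternatives to the processing. At 3 weeks the log2 differences in CPM of the Toxf/fPdcd1Cre libraries from the Toxf/f library were -0.42 and -0.96, and at 4 weeks the difference was -0.81, with 1 library per genotype at that age. In bulk RNA a lower level of this or any gene can mean fewer cells that express it or less RNA per cell, and these cannot be told apart.

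Il6ra, the ligand-binding chain of the interleukin-6 receptor that signals through gp130, showed the largest difference among the 10 genes. The gene (ENSMUSG00000027947) lies on chromosome 3 from 89864059 to 89913196 on the minus strand. It had 138, 162 and 104 counts in Toxf/fPdcd1Cre libraries and 296 and 501 in Toxf/f libraries. The levels were 1.78, 1.80 and 1.20 FPKM in Toxf/fPdcd1Cre libraries, against 3.50 and 5.62 FPKM in Toxf/f libraries. The genotypes did not overlap, and the Toxf/f libraries differed from each other more than the Toxf/fPdcd1Cre libraries did. The means were 1.59 ± 0.341 FPKM (SD, n = 3) in Toxf/fPdcd1Cre and 4.56 ± 1.499 FPKM (SD, n = 2) in Toxf/f. Il6ra was 2.74-fold lower in Toxf/fPdcd1Cre, with a log2 fold change of -1.45 ± 0.234 (SE, edgeR) and an adjusted p of 0.00967. Without Toxf/f replicate 3 the log2 fold change was -1.08 and the call was lost (adjusted p = 0.276, edgeR). The log2 differences were -0.84 and -0.97 at 3 weeks and -2.003 at 4 weeks, and a term for the change of the difference with age had an unadjusted p = 0.0240 and did not pass after adjustment over all genes (adjusted p = 0.9999, edgeR).

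Il2rg, the common gamma chain on chromosome X from 101264378 to 101268255 (minus strand), had the highest mean of the group over all 5 libraries, though Ifngr1 was higher in each Toxf/fPdcd1Cre library. Its levels were 185, 190 and 180 FPKM in Toxf/fPdcd1Cre libraries, against 272 and 229 FPKM in Toxf/f libraries. The genotypes did not overlap, and the Toxf/fPdcd1Cre libraries lay close together. The log2 fold change of -0.39 ± 0.136 did not pass the test (unadjusted p = 0.0149, adjusted p = 0.277, edgeR). It passed in none of the 18 alternatives, where adjusted p ran from 0.0632 to 0.769. The predicted gene Gm20489 overlaps Il2rg on the same strand and had 0 counts in every library, and no other gene of the 10 overlaps a listed gene.

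Il2rb encodes the beta chain that binds interleukin-2 and interleukin-15 and lies on chromosome 15 from 78479256 to 78495271 (minus strand). It had 784, 477 and 372 counts in Toxf/fPdcd1Cre libraries and 778 and 1175 in Toxf/f libraries. The levels were 16.5, 8.34 and 8.07 FPKM in Toxf/fPdcd1Cre libraries, against 13.4 and 19.7 FPKM in Toxf/f libraries. Toxf/fPdcd1Cre replicate 1 lay between the Toxf/f libraries, while the other Toxf/fPdcd1Cre libraries lay below both. The log2 fold change of -0.72 ± 0.265 did not pass (unadjusted p = 0.0189, adjusted p = 0.318, edgeR). Without Toxf/fPdcd1Cre replicate 1 the log2 fold change was -1.15 and Il2rb passed (adjusted p = 0.0166, edgeR). The log2 differences were 0.10 and -0.70 at 3 weeks and -1.45 at 4 weeks (age term, unadjusted p = 0.0156, adjusted p = 0.9999, edgeR).

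Il4ra and Il21r, the specific chains for interleukin-4 and interleukin-21, are neighbours on the plus strand of chromosome 7, from 125552120 to 125579474 and from 125603429 to 125633570. Il4ra was at 38.9, 53.8 and 47.4 FPKM in Toxf/fPdcd1Cre libraries and 42.4 and 53.6 FPKM in Toxf/f libraries. Il21r was at 55.2, 67.9 and 57.6 FPKM in Toxf/fPdcd1Cre libraries and 60.3 and 63.0 FPKM in Toxf/f libraries. In both genes the libraries of the genotypes were interleaved. The log2 fold changes were 0.01 ± 0.179 for Il4ra (adjusted p = 0.994) and 0.02 ± 0.140 for Il21r (adjusted p = 0.985, edgeR). Their signs varied with the processing: Il4ra lay below 0 in 12 and Il21r in 7 of the 18 alternatives.

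Il18r1, the binding chain of the interleukin-18 receptor of the IL-1 receptor family, lies on chromosome 1 from 40465552 to 40500854 on the plus strand. It had 720, 261 and 248 counts in Toxf/fPdcd1Cre libraries and 164 and 336 in Toxf/f libraries. The levels were 15.2, 4.71 and 4.81 FPKM in Toxf/fPdcd1Cre libraries, against 3.39 and 6.79 FPKM in Toxf/f libraries. Toxf/fPdcd1Cre replicate 1 lay far above all others, and the remaining Toxf/fPdcd1Cre libraries lay between the Toxf/f libraries. The log2 fold change of 0.84 ± 0.435 did not pass (unadjusted p = 0.0774, adjusted p = 0.551, edgeR), and without Toxf/fPdcd1Cre replicate 1 it was 0.09 (adjusted p = 0.944). Its accessory chain Il18rap, taken for its place in the receptor, was at 3.24, 1.59 and 1.24 FPKM in Toxf/fPdcd1Cre libraries and 0.93 and 1.03 FPKM in Toxf/f libraries. There the genotypes did not overlap, and replicate 1 again held the highest level, but Il18rap, at 1.08 ± 0.359 on the log2 scale, did not pass (adjusted p = 0.238, edgeR).

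Ifngr1, the ligand-binding chain of the interferon-gamma receptor, lies on chromosome 10 from 19591949 to 19610229 on the plus strand. Its levels were 229, 215 and 200 FPKM in Toxf/fPdcd1Cre libraries, against 221 and 163 FPKM in Toxf/f libraries. The genotypes overlapped, and the lowest value was that of Toxf/f replicate 3. The log2 fold change of 0.22 ± 0.157 did not pass (adjusted p = 0.749, edgeR), and it lay above 0 in all 18 alternatives. The signal-transducing chain Ifngr2 was at 22.8, 20.4 and 15.5 FPKM in Toxf/fPdcd1Cre libraries and 27.2 and 28.5 FPKM in Toxf/f libraries. All Toxf/fPdcd1Cre libraries lay below both Toxf/f libraries, but Ifngr2, at -0.53 ± 0.137 on the log2 scale, did not pass (adjusted p = 0.101, edgeR). DESeq2 called it lower, as did edgeR without Toxf/fPdcd1Cre replicate 1.

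Socs1 and Socs3 encode inhibitors of Janus kinases. Socs1, on chromosome 16 from 10782240 to 10785536 (minus strand), was at 27.0, 30.6 and 24.3 FPKM in Toxf/fPdcd1Cre libraries and 30.4 and 23.5 FPKM in Toxf/f libraries. The genotypes were interleaved, with means of 27.3 ± 3.14 FPKM (SD, n = 3) in Toxf/fPdcd1Cre and 26.9 ± 4.93 FPKM (SD, n = 2) in Toxf/f. The log2 fold change of 0.07 ± 0.160 did not pass (adjusted p = 0.948, edgeR). Socs3, which binds gp130 and inhibits interleukin-6 signalling, lies on chromosome 11 from 117966079 to 117970047 on the minus strand. It was at 10.8, 11.2 and 11.2 FPKM in Toxf/fPdcd1Cre libraries and 12.2 and 12.7 FPKM in Toxf/f libraries. The Toxf/fPdcd1Cre libraries all lay below the Toxf/f libraries, by a small margin. The log2 fold change of -0.11 ± 0.140 did not pass (adjusted p = 0.887, edgeR) and lay below 0 in all 18 alternatives.

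Counted together, 2 of the 10 genes were lower in Toxf/fPdcd1Cre cells, Il7r and Il6ra, against 1.51% of the 14121 genes tested (1.64% in either direction). None was higher by edgeR, DESeq2 or limma-voom, against 0.135% of all genes tested by edgeR. At an unadjusted p under 0.05, 4 were lower and 0 higher, against 7.26% and 3.08% of all genes (10.3% in either direction). Library values that did not overlap were found for 4 genes that lay lower (Il7r, Il6ra, Il2rg and Socs3) and for 0 that lay higher, against 13.5% and 12.6% of all genes (26.2% in either direction). The median log2 fold change of the 10 genes was -0.05, against 0.03 over all genes tested. Without Toxf/fPdcd1Cre replicate 1, 3 of the 10 were lower, Il2rb with the others, while 4.21% of all 13904 genes tested in that fit were lower. With either Toxf/f library left out, 1 or 0 were lower: Il6ra passed with the shared library of replicates 1 and 2 left out, and 0 of the 10 with replicate 3 left out.

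**Figure D2:**
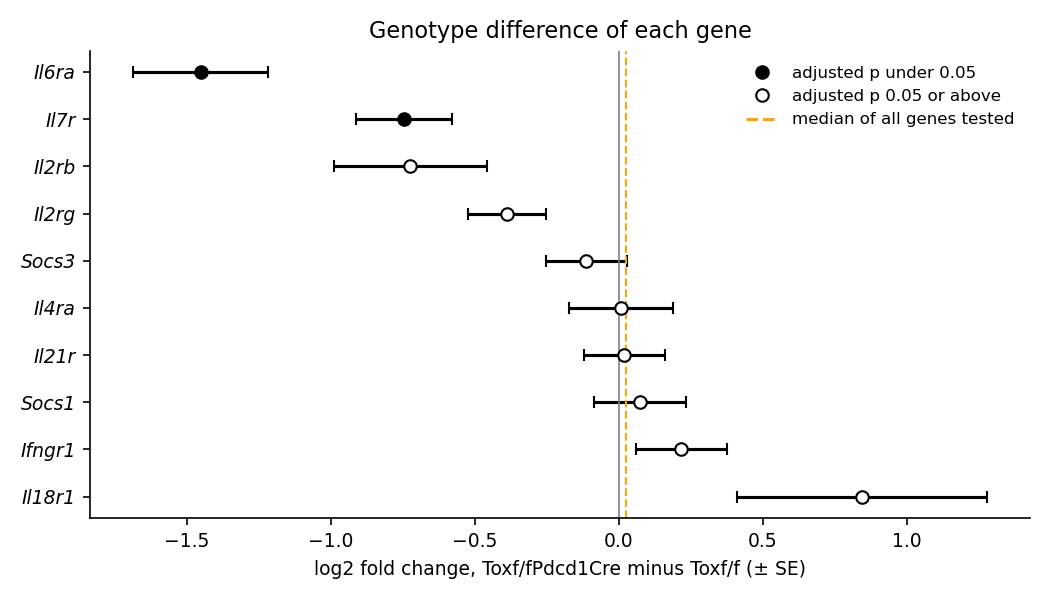
Log2 fold change of each of the 10 genes, Toxf/fPdcd1Cre minus Toxf/f, with its standard error from edgeR, and the median of all genes tested as a dashed line at 0.03. Filled points (Il6ra at -1.45 and Il7r at -0.75) had an adjusted p under 0.05, and the largest error is that of Il18r1, ± 0.435.

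**Figure D3:**
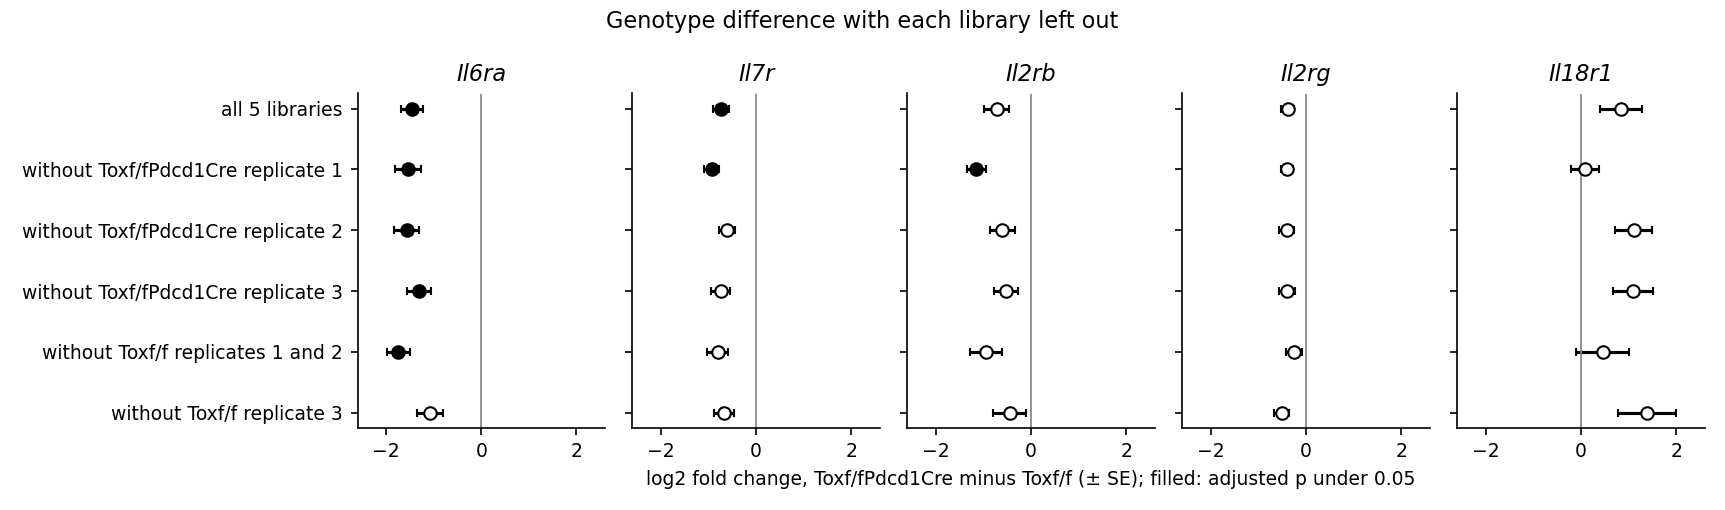
Log2 fold change with its standard error for Il6ra, Il7r, Il2rb, Il2rg and Il18r1 when each of the 5 libraries is left out in turn; filled points had an adjusted p under 0.05. Il6ra kept its call in 4 of 5 cases and Il7r in 1 of 5, while Il18r1 moved to 0.09 and Il2rb to -1.15 without Toxf/fPdcd1Cre replicate 1.

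The chains that work together were compared as ratios of FPKM within each library, for 10 pairs of genes and with no test. The ratio of Ifngr1 to Ifngr2 was 10.1, 10.5 and 12.9 in Toxf/fPdcd1Cre libraries, against 8.11 and 5.72 in Toxf/f libraries. The ratio of Il6ra to Il6st, the gene of gp130, was 0.0452, 0.0346 and 0.0252 in Toxf/fPdcd1Cre libraries, against 0.0790 and 0.108 in Toxf/f libraries. Neither pair of genotypes overlapped, the first ratio being higher and the second lower in Toxf/fPdcd1Cre cells. Il6st itself lay at 39.4, 52.0 and 47.6 FPKM in Toxf/fPdcd1Cre libraries and 44.3 and 52.0 FPKM in Toxf/f libraries (log2 fold change -0.01 ± 0.160, adjusted p = 0.990, edgeR). The ratio of Il7r to Crlf2 was 1.54, 1.04 and 1.34 in Toxf/fPdcd1Cre libraries, against 2.17 and 1.81 in Toxf/f libraries. The ratio of Il21r to Il2rg was 0.299, 0.358 and 0.320 in Toxf/fPdcd1Cre libraries, against 0.221 and 0.275 in Toxf/f libraries. These genotypes did not overlap either, nor did those of Il2ra over Il2rb, at 1.94, 2.61 and 3.16 in Toxf/fPdcd1Cre libraries and 1.525 and 1.504 in Toxf/f libraries. The remaining 5 pairs, which were Il7r, Il2rb and Il4ra each over Il2rg, Il18r1 over Il18rap, and Socs3 over Socs1, overlapped between the genotypes. No share over other pairs of genes was taken. Among single genes, CPM values did not overlap for 26.2% of all genes tested. Ratios with Il6ra, Il7r, Il2rg or Ifngr2 hold a chain whose own values did not overlap, and so partly restate it.

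Other genes of cytokine signalling were taken from 13 lists with 111 genes, of which 101 were tested. Of these 5 were lower and 0 higher in Toxf/fPdcd1Cre cells, against 1.51% lower and 0.135% higher of all genes tested. At an unadjusted p under 0.05, 26 were lower and 1 higher, against 7.26% and 3.08% of all genes. DESeq2 called 7 lower and 0 higher, beside 2.24% lower of all genes in that fit. For limma-voom 6 were lower and 0 higher, beside 1.98% lower of all genes. Without Toxf/fPdcd1Cre replicate 1, edgeR called 13 lower and 0 higher, beside 4.21% lower of all genes in that fit. The median log2 fold change over the 101 was -0.12. Ligands made up 7 of the 26 lower at an unadjusted p, and 4 of the 13 lower without Toxf/fPdcd1Cre replicate 1. Most ligands had few counts and some passed the filter through the Toxf/f libraries, so these totals are a description only.

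Among the STAT target genes, 3 of 11 fell, against 1.51% of all genes tested. Bcl2, the survival factor downstream of interleukin-7, was at 4.36, 4.60 and 3.97 FPKM in Toxf/fPdcd1Cre libraries and 9.57 and 9.56 FPKM in Toxf/f libraries, and fell by 1.08 ± 0.134 on the log2 scale (adjusted p = 0.0024, edgeR). Bcl3, a nuclear partner of NF-kappaB, was at 4.36, 2.74 and 3.01 FPKM in Toxf/fPdcd1Cre libraries and 8.26 and 10.7 FPKM in Toxf/f libraries (log2 fold change -1.47 ± 0.230, adjusted p = 0.00811). Ccnd2, cyclin D2 of the early cell cycle, was at 22.6, 10.4 and 11.7 FPKM in Toxf/fPdcd1Cre libraries and 26.6 and 39.9 FPKM in Toxf/f libraries (log2 fold change -1.20 ± 0.246, adjusted p = 0.0331, edgeR). The genotypes did not overlap in any of these, and replicate 1 of Toxf/fPdcd1Cre lay near the lower Toxf/f library in Ccnd2. With either Toxf/f library left out, the shared one or replicate 3, the calls were lost for Bcl2 (adjusted p = 0.0552 and 0.0587), Bcl3 (0.0680 and 0.209) and Ccnd2 (0.131 and 0.540, edgeR). Ccnd2 held its call in 7 of 18 alternatives. It also lost it with Toxf/fPdcd1Cre replicate 3 left out (adjusted p = 0.115, edgeR), with age as a covariate (adjusted p = 0.0925) and with DESeq2 (adjusted p = 0.158).

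Klf2, a factor of quiescence and thymic exit, was the only 1 of 9 regulators listed for Il7r that fell, at 7.11, 7.05 and 6.56 FPKM in Toxf/fPdcd1Cre libraries and 15.3 and 18.4 FPKM in Toxf/f libraries (log2 fold change -1.23 ± 0.161, adjusted p = 0.00301, edgeR). With Toxf/f replicate 3 left out it no longer passed (adjusted p = 0.102). Flt3, a receptor kinase of progenitors and dendritic cells, fell among 10 tested haematopoietin and kinase receptors, at 2.44, 2.48 and 1.89 FPKM in Toxf/fPdcd1Cre libraries and 4.27 and 5.54 FPKM in Toxf/f libraries (log2 fold change -1.05 ± 0.208, adjusted p = 0.0277, edgeR). Its call was lost without either Toxf/f library (adjusted p = 0.115 and 0.394), without Toxf/fPdcd1Cre replicate 3 (adjusted p = 0.115) and with age as a covariate (adjusted p = 0.0769, edgeR). Klf2 was 1 of 9 regulators and Flt3 1 of 10 receptors, against 1.51% lower of all genes tested. Of the 10 receptors 9 had log2 fold changes below 0, with a median of -0.54. Over all genes tested, 6387 of 14121 lay below 0, with a median of 0.03. At an unadjusted p under 0.05, 4 were lower, against 7.26% of all genes. Without Toxf/fPdcd1Cre replicate 1, Csf2rb and Kit were also lower, beside 4.21% lower of all genes in that fit.

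The Janus kinases, the other SOCS genes and the other negative regulators held no gene that passed. Over all genes tested, edgeR called 1.51% lower and 0.135% higher, so lists this small can hold none. DESeq2 and limma-voom called 2.24% and 1.98% lower. At an unadjusted p under 0.05, 7.26% were lower and 3.08% higher (edgeR). Of 4 Janus kinases 0 were called by edgeR, DESeq2 or limma-voom, and 0 at an unadjusted p under 0.05. Jak1, the kinase that binds Il7r, Il2rb and gp130 chains, was at 93.3, 115 and 107 FPKM in Toxf/fPdcd1Cre libraries and 111 and 117 FPKM in Toxf/f libraries (log2 fold change -0.06, adjusted p = 0.956, edgeR). Jak2 stood at a log2 fold change of -0.16. Of 6 other SOCS genes 0 passed by the 3 tools (1 lower at an unadjusted p under 0.05), with Socs4 at -0.04 and Socs6 at -0.02. Of 12 other negative regulators 0 passed by the 3 tools and 0 at an unadjusted p under 0.05, with the phosphatase Ptprc (CD45) at -0.03 and the ubiquitin ligase Cbl at 0.32.

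With all 5 libraries, no further receptor list held a gene that passed edgeR's test, against 1.51% lower and 0.135% higher of all genes tested. The 38 tested genes were of the other gamma chain, gp130, IL-1, interferon, IL-17 and TGF-beta families. At an unadjusted p under 0.05, 6 of these were lower and 1 higher, against 7.26% and 3.08% of all genes. DESeq2 called 1 lower (Ifngr2), against 2.24% of all genes, and limma-voom called 0, against 1.98%. Without Toxf/fPdcd1Cre replicate 1, edgeR called Il15ra and Ifngr2 lower, beside 4.21% lower of all genes in that fit. Il15ra, which presents interleukin-15 to the Il2rb and Il2rg chains, was at 10.8, 7.90 and 6.33 FPKM in Toxf/fPdcd1Cre libraries and 12.2 and 13.9 FPKM in Toxf/f libraries, with no overlap. Its log2 fold change of -0.77 ± 0.204 did not pass (adjusted p = 0.111, edgeR). Il2ra, the alpha chain of the interleukin-2 receptor and a marker of the DN2 and DN3 stages, stood at a log2 fold change of 0.13. The 2 most abundant genes of each remaining list stood at log2 fold changes from -0.37 (Tgfbr2) to 0.20 (Il17ra).

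Of the 18 ligands listed, 11 passed the filter on low counts and 7 were not tested. With all 5 libraries, none of the 11 passed edgeR's test, against 1.51% lower of all genes tested. At an unadjusted p under 0.05, 7 were lower and 0 higher, against 7.26% and 3.08% of all genes. DESeq2 and limma-voom called 1 lower each, against 2.24% and 1.98% of all genes. All 11 had log2 fold changes below 0, against 6387 of the 14121 genes tested. Most of the 11 had few counts, so that some passed the filter through the Toxf/f libraries, and nothing is drawn from their shared direction. Without Toxf/fPdcd1Cre replicate 1, Il12a, Il12b, Il13 and Il21 were called lower, beside 4.21% lower of all genes in that fit. Il12b, chosen after its values were seen, had 84, 36 and 17 counts in Toxf/fPdcd1Cre libraries and 126 and 219 in Toxf/f libraries, a log2 fold change of -1.79. The most abundant ligands differed less. Il7 had 402, 272 and 298 counts in Toxf/fPdcd1Cre libraries and 337 and 378 in Toxf/f libraries, a log2 fold change of -0.03. Il18 had 77, 52 and 63 counts in Toxf/fPdcd1Cre libraries and 80 and 81 in Toxf/f libraries, a log2 fold change of -0.22. Il6 had 0 counts in all 3 Toxf/fPdcd1Cre libraries and 2 and 3 in Toxf/f libraries, which is at or under a floor of 3 counts per library.

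**Figure D4:**
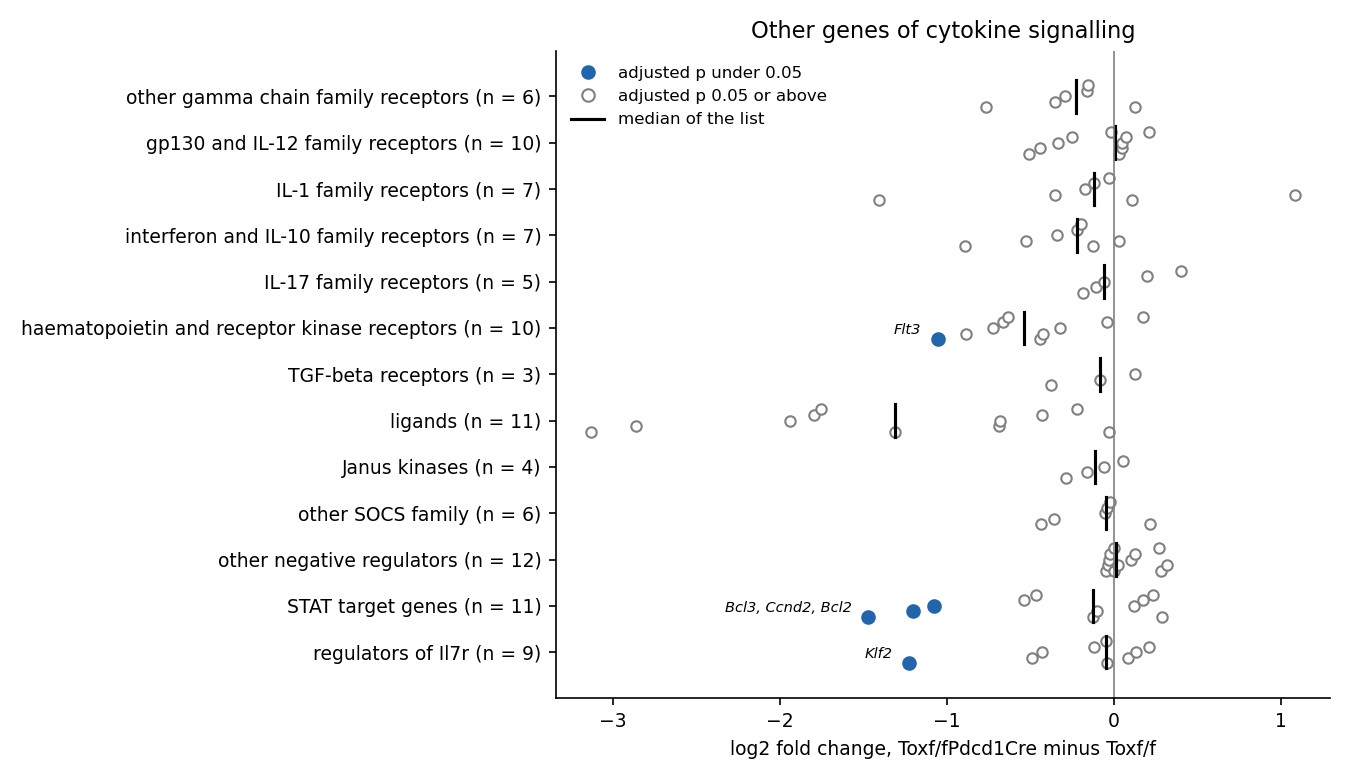
Log2 fold change, Toxf/fPdcd1Cre minus Toxf/f, of the 101 tested genes of 13 lists of cytokine signalling, 1 point per gene, with a bar at the median of each list and n the number tested. The 5 filled points (Flt3, Bcl3, Ccnd2, Bcl2 and Klf2) had an adjusted p under 0.05 and all lie below 0; the ligand row shows only the 11 of 18 genes with enough counts.

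The genes whose pattern over the 5 libraries was closest to that of Il7r and of Il6ra were found among 10500 tested genes with a mean of at least 5 CPM, by the root-mean-square difference of mean-centred log2 CPM. For Il7r these were B2m (0.0639 on the log2 scale), the light chain of MHC class I, then Slfn5 (0.0691) and Ifi203 (0.0716). Ifi203 passed the test between genotypes (adjusted p = 0.0460), while B2m (0.0602) and Slfn5 (0.0855, edgeR) did not. B2m averaged 917 CPM in Toxf/fPdcd1Cre and 1466 CPM in Toxf/f libraries. For Il6ra they were Nlrc5 (0.0855), a transactivator of MHC class I genes, then Spon1 (0.111) and H2-Ob (0.121), a chain of the peptide-loading regulator of MHC class II. Nlrc5 averaged 24.4 CPM in Toxf/fPdcd1Cre and 66.7 CPM in Toxf/f libraries. With 5 libraries such likeness is a description.

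Summed markers of some other thymic cells also differed between the genotypes, while those of others overlapped. The counts of markers below stand beside 1.51% lower and 0.135% higher of all genes tested by edgeR. At an unadjusted p under 0.05 these shares were 7.26% and 3.08%. Summed over their lists, B and plasma cell markers lay at 53.2 to 73.4 CPM in Toxf/fPdcd1Cre and 253 to 281 CPM in Toxf/f libraries (3 of 8 markers lower). Dendritic cell markers, among them Flt3 itself, lay at 2518 to 2655 CPM in Toxf/fPdcd1Cre and 3561 to 3995 CPM in Toxf/f libraries (4 of 12 lower, Flt3 included). Mature single-positive T cell markers, among them Il7r itself and Klf2, lay at 1360 to 1656 CPM in Toxf/fPdcd1Cre and 1802 to 1878 CPM in Toxf/f libraries (5 of 8 lower). These 3 sums, like Il7r, Il6ra and Il2rg, did not overlap between the genotypes.

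Regulatory T cell markers lay at 196 to 258 CPM in Toxf/fPdcd1Cre and 264 to 284 CPM in Toxf/f libraries (4 of 8 lower, 3 above 0). Much of this sum was Il2ra, also in the DN2 list. It was at 132, 97.4 and 116 CPM in Toxf/fPdcd1Cre and 86.9 and 124 CPM in Toxf/f libraries, and overlapped. Foxp3, the defining gene of these cells, was at 0 in Toxf/fPdcd1Cre replicate 3. Macrophage and granulocyte markers lay at 603 to 822 CPM in Toxf/fPdcd1Cre and 973 to 1069 CPM in Toxf/f libraries, with 0 of 10 called by edgeR, 2 lower at an unadjusted p under 0.05 and 1 lower by DESeq2 and by limma-voom. The part of these cells in the lower levels of Il7r, Il6ra, Bcl2, Bcl3, Ccnd2, Klf2 and Flt3 was not tested. Double-positive thymocyte markers lay at 9529 to 12439 CPM in Toxf/fPdcd1Cre and 9474 to 10498 CPM in Toxf/f libraries and overlapped.

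The summed markers of gamma-delta T cells and of NK and innate-like cells went the other way and were highest in Toxf/fPdcd1Cre replicate 1, the library that was highest in Il18r1. The gamma-delta sum was 475, 290 and 301 CPM in Toxf/fPdcd1Cre and 201 and 174 CPM in Toxf/f libraries, with Trdc and Cd163l1 higher among 5 markers. The NK and innate-like sum was 215, 122 and 115 CPM in Toxf/fPdcd1Cre and 89.7 and 93.4 CPM in Toxf/f libraries, with Klrk1 and Klrb1c higher among 9 tested. That list was mixed: 4 of the 9 lay below 0, Nkg7 among them at -0.78 (adjusted p = 0.215, edgeR), and its median log2 fold change was 0.80, against -0.32 without Toxf/fPdcd1Cre replicate 1. Zbtb16, the factor of innate-like T cells in that list, had 269, 60 and 49 counts in Toxf/fPdcd1Cre libraries and 35 and 107 in Toxf/f libraries, and like Il18r1 it overlapped between the genotypes and stood highest in replicate 1. The part of these cells in the level of Il18r1 was not tested. The remaining lists, of DN2 cells, thymic epithelium and erythroid cells, overlapped between the genotypes in their sums, with 1 of 8, 1 of 9 and 0 of 5 tested markers lower (Cd44 and Krt14; for the erythroid list 3 at an unadjusted p under 0.05, and 0 by DESeq2 and limma-voom). No marker of any list was at 0 in every library.

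**Figure D5:**
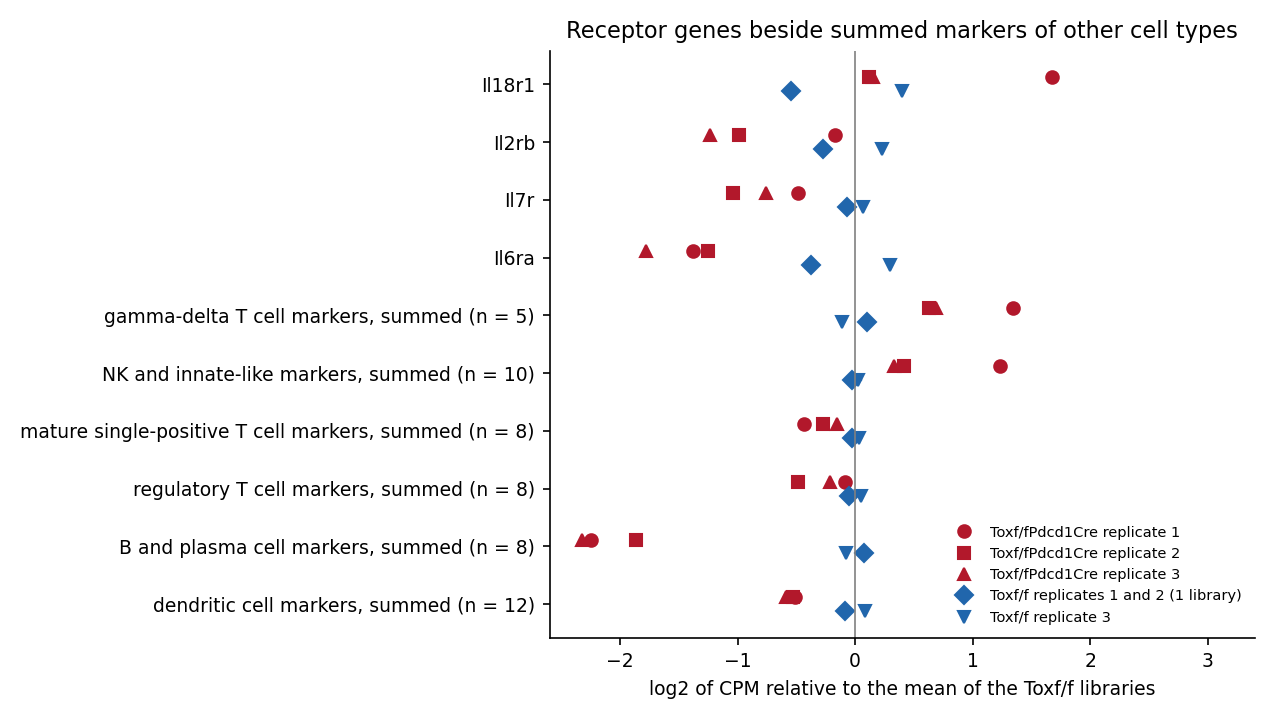
Log2 of CPM relative to the mean of the Toxf/f libraries, 1 point per library, for 4 receptor genes (top) and for the summed CPM of marker lists of other cell types (below). Toxf/fPdcd1Cre replicate 1 (circles) lies highest in Il18r1 and in the gamma-delta and NK sums, and the B and plasma cell sum is the lowest relative to Toxf/f in every Toxf/fPdcd1Cre library.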

How the data were processed

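Messenger RNA libraries were made from total RNA of sorted thymocytes (Trizol, NEBNext Ultra kit, per the labels' protocols). The authors deposited 1 table per sample, with estimated counts and FPKM for each of 22298 genes, per the file headers. The submitters' processing notes name fastp 0.18.0, HISAT2 and StringTie 1.3.1. The genome build, the annotation and whether strand was used: not given in the sources used here. Of the genes 8.81% to 9.84% per library had counts that were not whole, and counts were rounded.

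The 10 genes, the lists and the naming rule were chosen with earlier results of these data known. The rule took all 10 genes, Tox, the called genes of each list (or its 2 most abundant) and the nearest genes in pattern. Receptor partner chains were added for their place in the receptor. Cd4, Kit, Foxp3, Zbtb16, Pdcd1, Ddx3y, Il6 and Il12b were added after their values were seen. Of 214 list genes 210 matched. A further pathway list is not reported here. The 5 distinct libraries were filtered with filterByExpr (8177 genes left out, among them 3426 at 0 throughout), scaled by TMM and fitted with edgeR 4.0.16 in R 4.3.3 by the quasi-likelihood test, with Benjamini-Hochberg adjustment over all genes and a threshold of 0.05. CPM uses the TMM-scaled totals. Alternatives were other scalings and filters, DESeq2 1.42.0, limma 3.58.1 (voom, and log2(FPKM + 1) or log2(FPKM + 0.1)), age as a covariate, a replicate block, the identical files counted separately and each library left out. The fits were tested on simulated counts. Sequences and windows are RefSeq's, positions GENCODE M21's on GRCm38, and the files' own build may be another. Counts are not molecules, so depth limits precision most for low genes such as Il6ra.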

Additional observations from a re-analysis of the deposited data

Results flagged for a closer look

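Il18r1 stood out because its genotype difference had opposite directions at the ages studied. At 3 weeks both Toxf/fPdcd1Cre libraries lay above the Toxf/f library, by 0.64 and 2.18 on the log2 scale (mean 1.41), and at 4 weeks the Toxf/fPdcd1Cre library lay below the Toxf/f library, with a difference of -0.24. The larger value at 3 weeks is that of Toxf/fPdcd1Cre replicate 1. The term for the change of the difference with age was -1.89, with an unadjusted p = 0.0114 and an adjusted p = 0.9999 (edgeR), so it failed the adjustment over all genes; 4 of 14121 genes passed it. With 1 library per genotype at 4 weeks, age and the single libraries cannot be told apart.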

How the results depend on the processing

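Over 18 alternatives Tox stayed lower and past the threshold (log2 fold change -2.94 to -2.58). Il6ra stayed below 0 in all and past the threshold in 14, and Il7r stayed below 0 in all and past the threshold in 7. The Il7r call was also lost with RLE scaling (adjusted p = 0.0571), upper-quartile scaling (0.0828), the strict filter of at least 10 CPM in 3 libraries (0.119), age as a covariate (0.113) and limma on log2(FPKM + 1), on log2(FPKM + 0.1) and with no filter (0.105, 0.119 and 0.284); these 3 FPKM fits also lost Il6ra (0.0625, 0.0843 and 0.241). The cause was not tested. Of the 10 genes, 1 was lower with RLE scaling, upper-quartile scaling, the strict filter and age as a covariate, and 0 in the 3 FPKM fits; with each library left out the number ran from 0 to 3, and 0 were higher. Genes lower in all, 213 as reported, numbered 369 with no filter, 63 with the strict filter (fewer genes tested), 120 with log2(FPKM + 0.1), 43 with log2(FPKM + 1) and no filter, 116 with age, 325 with the identical files counted as 2 libraries, and 28 to 586 with each library left out. Genes higher, 19 as reported, numbered 9 with upper-quartile scaling, 48 with no filter, 4 with the strict filter, 43 with DESeq2, 8 with log2(FPKM + 1), 6 with log2(FPKM + 0.1), 1 with no FPKM filter, 9 with age, 55 with the identical files counted as 2, and 2 to 30 with each library left out.

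Deviations of the shared Toxf/f library from its genotype mean correlated at -0.198, 0.105 and 0.157 with those of Toxf/fPdcd1Cre replicates 1, 2 and 3. With 2 Toxf/f libraries, the deviations of Toxf/f replicate 3 are the same with the sign turned (-0.157 with Toxf/fPdcd1Cre replicate 3). These correlations therefore cannot decide whether the numbers pair samples, and the reported fit took no pairing. With a replicate block and the shared file under number 1, 340 genes were lower and 95 higher. Of the 10 genes 1, Il18r1, was higher in that fit (adjusted p = 0.0200, edgeR). With the shared file under number 2, the number in its column header, 769 were lower and 99 higher. Both blocks called Il2rb lower (adjusted p = 0.0477 and 0.000647). The median of the 10 genes lay below 0 in 17 of the 18 alternatives and at 0.02 with the second block. Among the other called genes of cytokine signalling, Klf2 held its call in 16 of 18 alternatives, Bcl2 in 15 of 18, Bcl3 in 14 of 17, Flt3 in 10 of 17 and Ccnd2 in 7 of 18. Beside the losses given above, Ccnd2 was lost with upper-quartile scaling (adjusted p = 0.0743), the strict filter (0.132) and the identical files counted as 2 libraries (0.0619). Flt3 and Ccnd2 were lost in all 3 FPKM fits (0.0811 to 0.355), and Bcl2, Bcl3 and Klf2 in the unfiltered one (0.0959, 0.146 and 0.0607). Every log2 fold change of these 5 genes stayed below 0.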
